A study of Mus musculus with 112 samples.

Results

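Newly made polyadenylated long noncoding RNAs (lncRNAs) were compared between the nucleoplasm and the cytoplasm of mouse embryonic stem cells (ESCs) that had received no auxin. The comparison took the 3 nucleoplasm and the 3 cytoplasm libraries that the labels name as SLAM-seq without IAA, 6 of the 18 SLAM-seq libraries and 6 of the 112 samples of the series. SLAM-seq marks RNA made during a pulse of 4-thiouridine (4sU), which is then read as T-to-C changes. The series itself asked what becomes of lncRNAs when U1 snRNP, the splicing particle that binds 5′ splice sites, is blocked or depleted.

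All 4 groups of labelled soluble RNA came from 1 line, SNRNP70-AID mESC, made from 46C mES cells of strain 129/Ola, in which SNRNP70, a protein of U1 snRNP, carries an auxin-inducible degron. The 3 nucleoplasm and 3 cytoplasm libraries without IAA had 4sU for 3 h. A further 3 nucleoplasm and 3 cytoplasm libraries had 2 h of IAA (indole-3-acetic acid, the auxin) and then 3 h of IAA with 4sU. A last set, 3 nucleoplasm and 3 cytoplasm libraries at 0 h of IAA, held total RNA without the label, depleted of ribosomal RNA. All of these cells, those without IAA too, carry the degron on SNRNP70, and whether the line is 1 clone is not given in the sources used here. The protocol field of the libraries without IAA also mentions IAA, while their titles say that there was none and their treatment field names 4sU alone. Soluble labelled RNA was selected for poly(A) tails and each whole fraction was mixed with ERCC spike-in RNA, so values stand for RNA per fraction. The labels do not say that replicates were separate cultures, so p-values measure the spread between these libraries, which may be technical. No library without 4sU was used, so the T-to-C changes that arise without label were not measured.

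A nuclear RNA leaves for the cytoplasm through the pore once export factors have been loaded on it, and splicing and polyadenylation help to load them. Many lncRNAs are spliced poorly or are held by nuclear bodies and stay behind, whereas spliced hosts of small nucleolar RNAs (snoRNAs) reach ribosomes, where several are degraded by nonsense-mediated decay. The level of a new RNA in each compartment therefore sums its synthesis, its export and its decay on either side, and a ratio of fractions does not separate them.

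The deposited signal is a count of T-to-C reads that the authors scaled to the spike-in RNA, given for 492 entries of lncRNAs. They lay on whole steps of 2.01 to 2.62 units a read in nucleoplasm and 5.32 to 5.99 in cytoplasm, which gave back 39498, 61024 and 44475 reads in the nucleoplasm libraries and 27003, 38385 and 24927 in the cytoplasm libraries. The cytoplasm was therefore read less deeply, and 57 to 72 entries were at 0 in a cytoplasm library, against 2 to 9 in a nucleoplasm library. Summed over the 492 entries the signal was 103398, 122785 and 94027 in nucleoplasm, against 161695, 216865 and 132590 in cytoplasm, with no overlap (exact two-sided permutation test, p = 0.1, the smallest that 3 against 3 libraries allow). Because the signal is not divided by length, levels are compared here between fractions and not between genes. Of the 492 entries RefSeq lists 21 under a protein-coding gene, so the table is not purely noncoding.

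Each lncRNA was tested in limma on log2(signal + 8.21), as nucleoplasm minus cytoplasm, with Benjamini-Hochberg adjustment over the 474 lncRNAs tested and a threshold of 0.05. At low levels this scale understates a difference. In all, 112 lncRNAs passed (23.6%), of which 38 were higher in nucleoplasm (8.02%) and 74 were lower there (15.6%), and the median difference over all tested was -0.09. The 2 sets of libraries did not overlap for 199 lncRNAs (42%), with nucleoplasm above for 81 (17.1%) and below for 118 (24.9%). The plot of difference against level shows lower calls along the whole range of levels and most of the higher calls in the lower part of that range. The split depended on the scale: with each library centred on its own median, which raised every difference by 0.25, 81 were higher and 75 lower (32.9% called). With edgeR on the recovered reads and TMM scaling, 74 were higher and 58 lower (27.8% called), and with DESeq2 99 were higher and 62 lower (34% called). Leaving out 1 library gave 22 calls without nucleoplasm library 1, 54 without nucleoplasm library 2, 54 without nucleoplasm library 3 and 83 to 135 without a cytoplasm library, and 22 of the 112 calls held in all 6 of these fits.

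**Figure D1:**
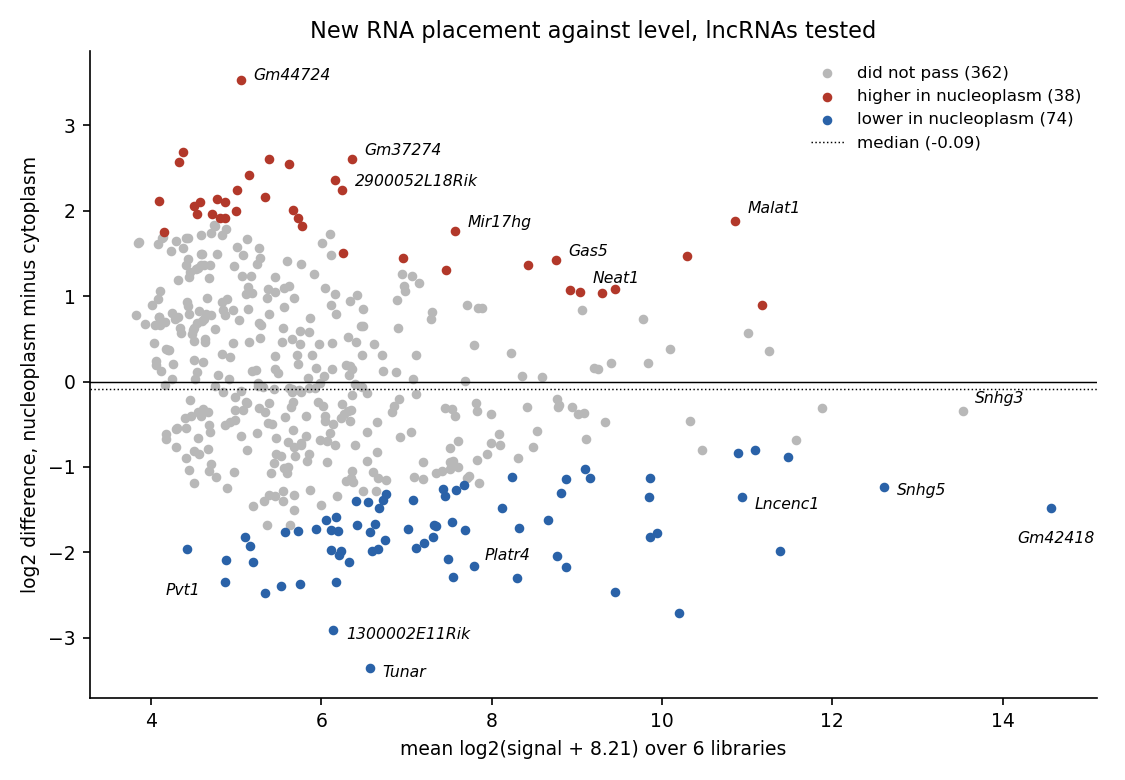
Each point is 1 of 474 lncRNAs tested, with the mean log2(signal + 8.21) over 6 libraries on the horizontal axis and the log2 difference in new RNA, nucleoplasm minus cytoplasm, on the vertical axis. Red marks the 38 lncRNAs higher in nucleoplasm, blue the 74 lower there, grey the rest, and the dotted line the median of -0.09.

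Nuclear-retained lncRNAs served as the nuclear check of the fractions, with Malat1 and Neat1 as markers. The markers chosen for cytoplasm were Gas5, Snhg1 and 2900097C17Rik, and none was called on that side. Gas5 was higher in nucleoplasm (log2 difference 1.42), Snhg1 did not pass and 2900097C17Rik was not analysed here. Malat1, the abundant RNA of nuclear speckles, stood on the nuclear side. Malat1 (chr19:5795690-5802672, mm10) had 3982, 3592 and 3087 units of signal in nucleoplasm, against 886, 949 and 1042 in cytoplasm. All 3 nucleoplasm libraries lay above all 3 cytoplasm libraries, by a log2 difference of 1.88 (SE 0.29, limma adjusted p = 1.66e-05). Neat1 (chr19:5824708-5845480), the scaffold of paraspeckles, had 704, 839 and 699.8 in nucleoplasm and 317, 492 and 287 in cytoplasm, without overlap, for a log2 difference of 1.05 (SE 0.34, adjusted p = 0.0261). Tsix (chrX:103431517-103484957), the antisense partner of Xist, had 793, 639.8 and 655 in nucleoplasm, against 329, 497 and 207 in cytoplasm, again without overlap (log2 difference 1.08, SE 0.36, adjusted p = 0.0273). Whether the reads were counted by strand is not given in the sources used here, so Tsix may hold reads of its partner. Of the 12 nuclear-retained lncRNAs tested, 3 were higher in nucleoplasm, beside 8.02% of all tested, 1 was lower, beside 15.6%, and 8 did not pass, and their median was 1.06 beside -0.09 for all tested. Estimates were above 0 for 11 of the 12, under median centring, edgeR and DESeq2 as well.

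The exception among them was Pvt1 (chr15:62037986-62260215), the neighbour of Myc, which was lower in nucleoplasm. Its signal was 13.1, 0 and 4.23 in nucleoplasm, against 65.9, 45.2 and 63.8 in cytoplasm, with no overlap (log2 difference -2.34, SE 0.69, adjusted p = 0.0131). The Pvt1 call rests on few reads, since 1 read was worth 2.01 to 2.62 units in nucleoplasm and 5.32 to 5.99 in cytoplasm. Firre, a nuclear RNA of the X chromosome, had 196, 441 and 245 in nucleoplasm and 77.8, 220.3 and 176 in cytoplasm, which overlapped (log2 difference 0.90, adjusted p = 0.118). The other members that did not pass were Meg3, Halr1, Ftx, Mirg, Rian, Dleu2 and Kcnq1ot1. Malat1 passed in all 6 fits that left out 1 library, with a highest adjusted p of 0.0138 without nucleoplasm library 1. Neat1 and Tsix passed only in the fit without cytoplasm library 2, with adjusted p-values up to 0.105 without nucleoplasm library 2 and up to 0.162 without nucleoplasm library 1. Pvt1 did not pass without any of the nucleoplasm libraries, with up to 0.0932 without library 2. Median centring called 8 of the 12 higher and 1 lower, beside 17.1% and 15.8% of all tested on that scale.

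MicroRNA hosts are transcripts whose hairpins are cut out in the nucleus by Drosha. All 6 in the table had estimates above 0, beside 225 of all 474 tested, with a median of 1.31. Only Mir17hg passed, beside 8.02% higher of all tested. Under median centring 4 passed, beside 17.1% higher of all tested on that scale. Mir17hg (chr14:115044390-115046728) had 277, 471 and 307 in nucleoplasm, against 83.8, 254 and 37.2 in cytoplasm. The lowest nucleoplasm library was just above the highest cytoplasm library, and the cytoplasm libraries differed widely (log2 difference 1.76, SE 0.48, adjusted p = 0.00715). The call was lost without nucleoplasm library 1 or library 2, with an adjusted p of 0.0875 without library 1. Mirg had 65.5, 38.2 and 67.7 in nucleoplasm and 17.96, 28.2 and 5.32 in cytoplasm, without overlap, and did not pass (adjusted p = 0.109). Dleu2, host of microRNAs deleted in leukaemia, had 94.2, 62.4 and 104 in nucleoplasm and 17.96, 84.8 and 15.96 in cytoplasm, where 1 cytoplasm library lay among those of the nucleoplasm (adjusted p = 0.126). Mir22hg, Ftx and Mir124a-1hg had log2 differences of 0.85, 1.37 and 0.81 and did not pass.

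Mir17hg belongs to the cluster of oncogenic microRNAs that begins with miR-17. The 6 principal mature microRNAs of that cluster, printed because they are the products cut from this precursor, follow from RefSeq on GRCm38.p6, all on the plus strand, with the seed, bases 2 to 8 from the 5′ end, in capitals.
mmu-miR-17-5p: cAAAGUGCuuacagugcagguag
mmu-miR-20a-5p: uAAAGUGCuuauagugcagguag
mmu-miR-18a-5p: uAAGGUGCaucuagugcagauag
mmu-miR-19a-3p: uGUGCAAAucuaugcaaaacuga
mmu-miR-19b-3p: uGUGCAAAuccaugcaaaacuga
mmu-miR-92a-3p: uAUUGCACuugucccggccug
They fall into 4 seeds: miR-17-5p with miR-20a-5p, miR-19a-3p with miR-19b-3p, and miR-18a-5p and miR-92a-3p alone. Their hairpins span chr14:115043671-115044506, while the RefSeq span of Mir17hg starts at 115044390, so of the 6 hairpins only that of miR-92a-3p lies wholly inside it. The signal counted for Mir17hg stands for the host transcript as the authors' annotation drew it, and the mature microRNAs, which carry no poly(A) tail, were not measured.

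Imprinted lncRNAs had 0 calls in 5, beside 8.02% higher of all tested. All 5 estimates were above 0, with a median of 0.86. Under median centring 4 passed, beside 17.1% higher of all tested on that scale. Kcnq1ot1, which silences neighbouring genes on the paternal chromosome, had 175, 278 and 169 in nucleoplasm, against 71.9, 129.9 and 69.2 in cytoplasm. Its fractions did not overlap, and the log2 difference of 1.15 (SE 0.46) missed the threshold with an adjusted p of 0.0589. Meg3, the maternal RNA of the Dlk1-Dio3 domain, had 602, 801 and 732 in nucleoplasm and 359, 531 and 314 in cytoplasm, likewise without overlap (log2 difference 0.84, SE 0.34, adjusted p = 0.0651). Rian, from the same domain, had 105, 16.1 and 50.7 in nucleoplasm and 41.9, 33.9 and 21.3 in cytoplasm, which overlapped (adjusted p = 0.636). Kcnq1ot1 and Meg3 each passed in 1 of the 6 fits that left out a library.

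**Figure D2:**
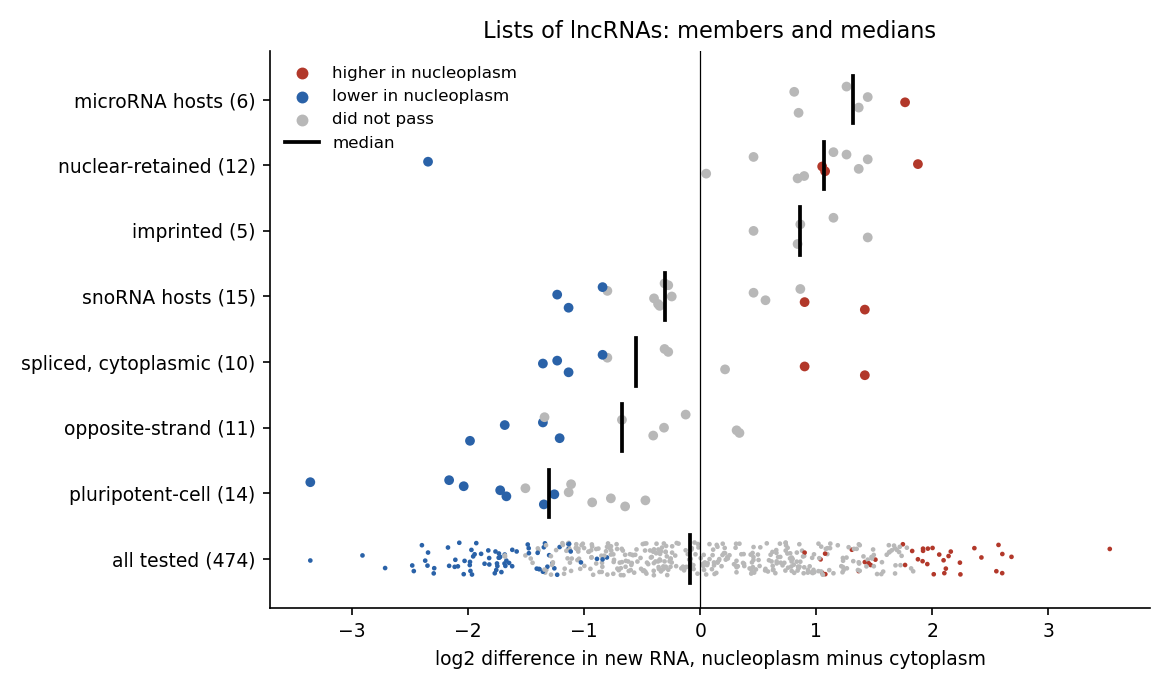
Each point is 1 lncRNA, placed by its log2 difference in new RNA, nucleoplasm minus cytoplasm, for 7 lists and for all 474 tested, with red for higher in nucleoplasm, blue for lower, grey for not passed and a black bar for the median. The medians run from 1.31 for microRNA hosts to -1.30 for pluripotent-cell lncRNAs, and snoRNA hosts lie on both sides.

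Host genes of snoRNAs were found on both sides. These transcripts carry snoRNAs in their introns, and their spliced exons are what remains to be exported. Of 15 tested, 2 were higher in nucleoplasm, 3 were lower and 10 did not pass, with a median of -0.31. These are not far from the 8.02% higher and 15.6% lower of all tested, and none passed without nucleoplasm library 1. That median was -0.05 under median centring, 0.08 with edgeR under TMM and 0.18 with DESeq2, so the list as a whole had no side that held across scalings.

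Gas5 (chr1:161034601-161038539), which accumulates in cells that stop growing, was on the nuclear side. It had 539, 1115 and 564 in nucleoplasm, against 269, 429 and 144 in cytoplasm, without overlap, although nucleoplasm library 2 was far above the others (log2 difference 1.42, SE 0.39, adjusted p = 0.00744). Snhg12 (chr4:132308678-132311024) had 2903, 3795 and 2844 in nucleoplasm and 1491, 2446 and 1314 in cytoplasm, also without overlap (log2 difference 0.90, SE 0.30, adjusted p = 0.0293). On the cytoplasmic side, Snhg5 (chr9:88521052-88522897) had 3497, 4704 and 4087 in nucleoplasm, against 8389, 13169 and 7915 in cytoplasm. All 3 cytoplasm libraries exceeded all 3 nucleoplasm libraries (log2 difference -1.23, SE 0.29, adjusted p = 0.00283). Snhg15 had 359, 481 and 309 in nucleoplasm and 599, 1096 and 888 in cytoplasm (log2 difference -1.13, SE 0.34, adjusted p = 0.0159). Snhg8 had 1312, 1644 and 1315 in nucleoplasm and 2683, 3316 and 1846 in cytoplasm (log2 difference -0.84, SE 0.30, adjusted p = 0.0402). Neither of these overlapped.

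Snhg3, the most strongly read host, and Snhg1 did not pass. Snhg3 had 9581, 13467 and 8920 in nucleoplasm and 11305, 18305 and 11505 in cytoplasm, with overlap (log2 difference -0.35, 95% interval -0.94 to 0.24, adjusted p = 0.4). Snhg1, a host whose spliced RNA is known for nonsense-mediated decay, had 2832, 4467 and 3046 in nucleoplasm and 3485, 5593 and 3750 in cytoplasm (log2 difference -0.31, 95% interval -0.91 to 0.29, adjusted p = 0.468). Dancr, a spliced RNA that restrains differentiation in human cells, had 356, 513 and 334 in nucleoplasm and 431, 701 and 362 in cytoplasm (adjusted p = 0.597). For Snhg1, Snhg3 and Dancr the estimate turned positive under TMM and DESeq2 scaling. Snhg5 lost its call only without nucleoplasm library 1 (adjusted p = 0.0803). Gas5 lost it without nucleoplasm library 1 or 2 (up to 0.0991), and Snhg15 without nucleoplasm library 1 or 3 (up to 0.103). Snhg12 passed in the fit without cytoplasm library 2 and in no other, and Snhg8 in the fit without cytoplasm library 3 and in no other.

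The 10 spliced, cytoplasmic lncRNAs overlap this list and gave 2 higher and 4 lower, beside 8.02% and 15.6% of all tested, with a median of -0.55. That median was -0.12 with edgeR under TMM and -0.02 with DESeq2, with 5 estimates on each side of 0, and none passed without nucleoplasm library 1. Epb41l4aos (chr18:33794892-33795989), a spliced opposite-strand RNA, had 618, 714 and 419 in nucleoplasm, against 1156, 2011 and 1367 in cytoplasm. The fractions did not overlap (log2 difference -1.36, SE 0.33, adjusted p = 0.00309, and 0.0544 without nucleoplasm library 1). 1700020I14Rik, known as Cyrano, which directs the destruction of a microRNA in mice, had 1073, 1109 and 776 in nucleoplasm and 796, 966 and 766 in cytoplasm. These overlapped, and the difference had a 95% interval of -0.42 to 0.85. Its result depended on the scale: edgeR under TMM called it higher in nucleoplasm (log2 difference 0.65, adjusted p = 0.0136). Under median centring it did not pass (log2 difference 0.47, limma adjusted p = 0.051). Tug1, a spliced lncRNA held partly in nuclei, had 759, 1187 and 795 in nucleoplasm and 341, 599 and 394 in cytoplasm, without overlap (log2 difference 1.04, SE 0.34, adjusted p = 0.0265). It passed only without cytoplasm library 2 or 3, with up to 0.148 without nucleoplasm library 2.

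Pluripotent-cell lncRNAs had estimates on the cytoplasmic side, and 7 of 14 passed. All 14 measured members, Lncenc1, Panct2, Tunar and 11 Platr genes, had estimates below 0 on the spike-in scale, under median centring and with edgeR, and 13 of them with DESeq2. The 7 that passed were lower in nucleoplasm, beside 15.6% of all tested, 0 were higher, and the median was -1.30. The libraries of 10 did not overlap, with nucleoplasm below in each, beside 24.9% of all tested. Counts of calls fell to 2 without nucleoplasm library 1 and to 4 without nucleoplasm library 3, and reached 8 without cytoplasm library 3.

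Tunar (chr12:105336594-105383932), which is needed for self-renewal and neural differentiation of mouse ESCs, differed most of all 474 lncRNAs on this side. It had 7.85, 30.2 and 33.8 in nucleoplasm, against 281, 503 and 181 in cytoplasm. The highest nucleoplasm library was far below the lowest cytoplasm library (log2 difference -3.36, SE 0.54, adjusted p = 1.92e-05). Lncenc1 (chr13:97434970-97497664), which sustains glycolytic genes in naive ESCs, had 1134, 1467 and 1099 in nucleoplasm and 3012, 3802 and 2660 in cytoplasm, without overlap (log2 difference -1.35, SE 0.30, adjusted p = 0.00128). Platr4 (chr3:41487681-41493199), one of the pluripotency-associated transcripts, had 238, 191 and 194 in nucleoplasm and 994, 797 and 846 in cytoplasm, without overlap (log2 difference -2.04, SE 0.35, adjusted p = 4.06e-05). Platr10 (chr3:75647441-75655731) had 39.3, 147 and 146 in nucleoplasm, with library 1 well below the other two, and 431, 678 and 329.8 in cytoplasm (log2 difference -2.16, SE 0.44, adjusted p = 5.73e-04). Tunar and Platr4 passed in all 6 fits that left out a library, whereas Lncenc1 and Platr10 were lost without nucleoplasm library 1 (adjusted p = 0.053 and 0.053). Platr5, with 15.7, 22.1 and 44.4 in nucleoplasm and 95.8, 282 and 37.2 in cytoplasm, passed although its fractions overlapped (adjusted p = 0.0458), and only the fit without cytoplasm library 3 kept it. Platr17 and Platr27 also passed, with log2 differences of -1.26 and -1.67. Both were lost without nucleoplasm library 1 or 3, and Platr17 also without nucleoplasm library 2 or cytoplasm library 2. Of the lncRNAs of differentiated cells, Halr1, Bvht and Mir124a-1hg were in the table, with a median of 0.05. They had 0 calls, beside 8.02% higher and 15.6% lower of all tested.

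**Figure D3:**
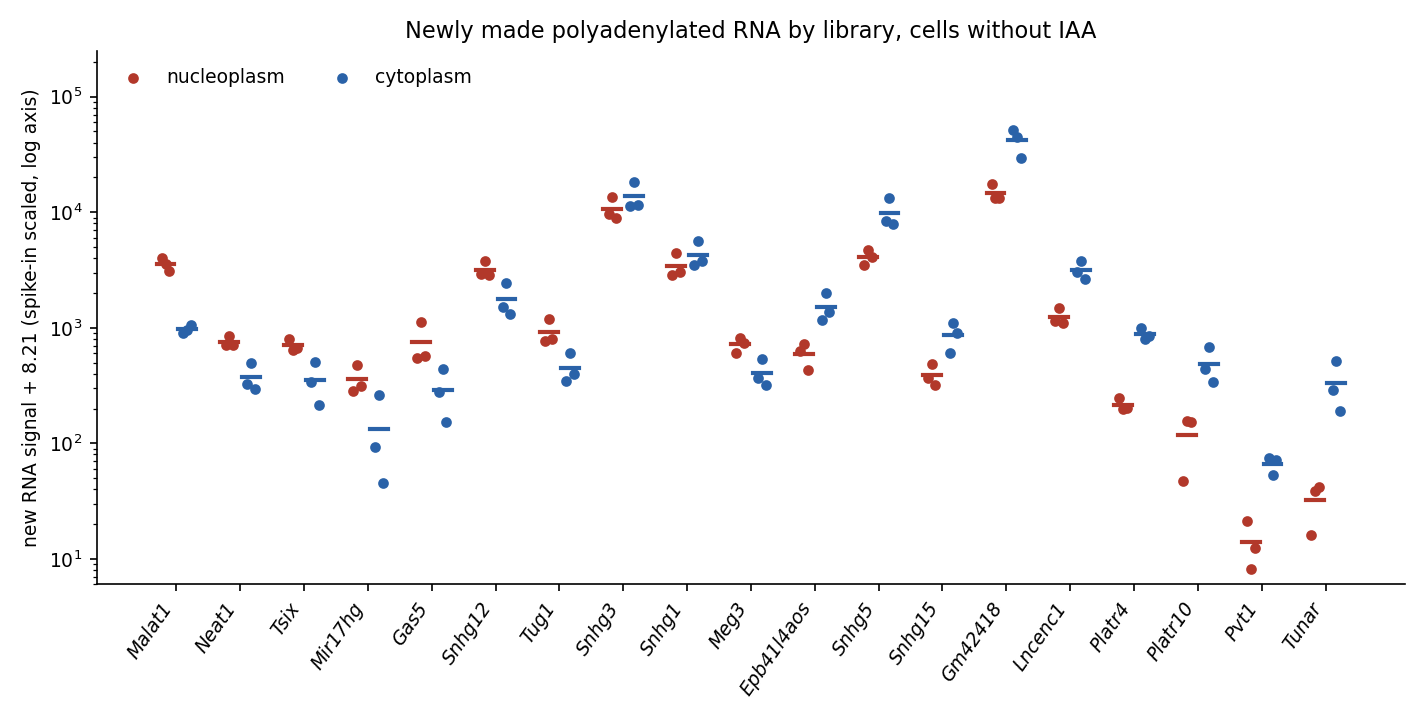
Signal of new polyadenylated RNA plus 8.21, on a log axis, in the 3 nucleoplasm libraries (red, left) and the 3 cytoplasm libraries (blue, right) for 19 lncRNAs, with a bar at each mean. Malat1 runs from 3087 to 3982 in nucleoplasm and from 886 to 1042 in cytoplasm, and Tunar from 7.85 to 33.8 in nucleoplasm and from 181 to 503 in cytoplasm, before the 8.21 is added.

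Beyond these lists, the largest cytoplasmic excesses that met the level and non-overlap rules lay in lncRNAs known by clone or model names. 1300002E11Rik (chr16:21794347-21809040) had 36.6, 12.1 and 10.6 in nucleoplasm and 126, 424 and 117 in cytoplasm, where library 2 was far above the others (log2 difference -2.91, SE 0.60, adjusted p = 5.73e-04). Gm45184 had 403, 586 and 387 in nucleoplasm and 2419, 4819 and 2319 in cytoplasm (log2 difference -2.71, SE 0.33, adjusted p = 1.39e-07). 2810408I11Rik (chr1:64679869-64690659) had 251, 370.2 and 256 in nucleoplasm and 1335, 2294 and 1410 in cytoplasm (log2 difference -2.47, SE 0.33, adjusted p = 1.33e-06). None of these 3 overlapped between fractions, and each passed in all 6 fits that left out a library. D130058E05Rik, Gm7292, 2010320M18Rik and Gm21982 followed, with log2 differences of -2.35, -2.30, -2.29 and -2.17, of which D130058E05Rik, listed by RefSeq as protein-coding, was lost without nucleoplasm library 1 (adjusted p = 0.0544). Cct6a, which RefSeq lists as protein-coding and which encodes a subunit of the cytosolic chaperonin, had 1165, 1700 and 1203 in nucleoplasm and 4162, 7938 and 4537 in cytoplasm. That entry gave a log2 difference of -1.99 (SE 0.30, adjusted p = 1.46e-05) and may count messenger RNA.

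Opposite-strand lncRNAs, which are transcribed against a coding gene, gave 0 higher and 4 lower of 11 tested, beside 8.02% and 15.6% of all tested. Their median of -0.67 was -0.26 with edgeR under TMM and -0.17 with DESeq2. Besides Epb41l4aos these were Map2k3os, Etaa1os and Rab10os. Map2k3os had 28.8, 40.2 and 54.97 in nucleoplasm and 179.6, 237 and 144 in cytoplasm (log2 difference -1.98, adjusted p = 0.00531). Etaa1os had 34.03, 34.2 and 52.9 in nucleoplasm and 192, 107 and 149 in cytoplasm (log2 difference -1.68, adjusted p = 0.0201). Rab10os had 128, 147 and 106 in nucleoplasm and 293, 401 and 234 in cytoplasm (log2 difference -1.21, adjusted p = 0.0297). The fractions did not overlap for any of the 4, and each lost its call without nucleoplasm library 1 (up to 0.0961 for Etaa1os and 0.061 for Map2k3os). Etaa1os also lost it without nucleoplasm library 2 or cytoplasm library 1, and Rab10os without either of the other nucleoplasm libraries or cytoplasm library 1. Since the counting strand is not given, reads of the overlapping coding gene may be included.

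By symbol, 131 lncRNAs ending in Rik gave 5 higher and 29 lower with a median of -0.36. The 252 named Gm with a number gave 24 higher and 25 lower with a median of 0.31. Of all tested, 8.02% were higher and 15.6% lower. All 7 higher calls that reached the level for testing in nucleoplasm libraries alone are among the 24 of Gm lncRNAs. Those 7 follow in part from that filter. Under median centring the Rik lncRNAs gave 10 higher and 31 lower and the Gm lncRNAs 52 higher and 24 lower, beside 17.1% higher and 15.8% lower of all tested on that scale. On the spike-in scale the median of the Gm lncRNAs was above that of all tested, -0.09, and that of the Rik lncRNAs below it. Of the 38 lncRNAs higher in nucleoplasm, 27 had no match in RefSeq, against 21 of the 74 lower there. No match was found for 204 of the 362 that did not pass and for 265 of all 492 entries. Gene length could not be set beside placement, because positions matched for 227 of 492 entries only.

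The largest nucleoplasmic excesses that met the level and non-overlap rules included gene models with few cytoplasmic reads. Gm37274 had 199, 229 and 159 in nucleoplasm, against 5.99, 33.9 and 53.2 in cytoplasm (log2 difference 2.60, SE 0.56, adjusted p = 0.00109). Gm43362 had 154, 207 and 114 in nucleoplasm and 11.98, 22.6 and 42.5 in cytoplasm (log2 difference 2.36, SE 0.57, adjusted p = 0.00309). Neither overlapped, and both lost their calls without nucleoplasm library 1 alone (adjusted p = 0.0544 and 0.061). 2900052L18Rik (chr11:120225529-120231617) had 144, 219 and 121 in nucleoplasm and 29.9, 73.5 and 5.32 in cytoplasm (log2 difference 2.24, SE 0.60, adjusted p = 0.00686). It lost its call without nucleoplasm library 1 or 2 (up to 0.0922). With IAA its fractions overlapped (log2 difference -0.05). An unnamed entry, ENSMUSG00000089788.1, was among the strongly read ones, with 1882, 2569 and 1875 in nucleoplasm and 737, 921 and 617 in cytoplasm. It passed in all 6 fits that left out a library (log2 difference 1.47, SE 0.31, adjusted p = 7.36e-04). Gm29253 and 7330423F06Rik, with log2 differences of 1.83 and 1.51, completed the 8 that met the rules, and each passed in 2 of those 6 fits.

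Among the 38, 9 had 3 or fewer cytoplasmic reads over the 3 libraries, and 3 of these had none. Gm44724 had 120.4, 135 and 69.8 in nucleoplasm, against 0, 5.65 and 0 in cytoplasm, which is 146 reads against 1. The ratio of signal was 57.4, with an exact 95% interval of 10.2 to 2284.5 that covers counting error only. Gm44164 had 18.3, 64.4 and 67.7 in nucleoplasm and no read in any cytoplasm library, and was at least 2.96-fold higher in nucleoplasm when each cytoplasm library is set at 3 reads, a mean of 16.96 units. Gm37607 had 70.7, 153 and 78.2 in nucleoplasm and 35.9, 0 and 5.32 in cytoplasm (log2 difference 2.60, adjusted p = 0.00691). Gm44724 and Gm44164 are among 7 of the 38 that reached the level for testing in nucleoplasm libraries alone, so their calls follow in part from that filter and are given as values only. Gm37607 was lost without nucleoplasm library 1 or 2 (up to 0.0777).

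A single entry, Gm42418, held much of the signal, and it was lower in nucleoplasm. This locus (chr17:39846354-39848202) is a RefSeq pseudogene with sequence like ribosomal RNA, so its reads may come from ribosomal RNA that poly(A) selection left in. It had 17437, 13197 and 13315 in nucleoplasm, against 51120, 45107 and 29218 in cytoplasm, which made 16.9%, 10.7% and 14.2% of the summed signal in nucleoplasm and 31.6%, 20.8% and 22% in cytoplasm. The fractions did not overlap in level (log2 difference -1.49, SE 0.29, adjusted p = 3.79e-04) or in share. Without the 5 most strongly read entries the summed signal averaged 72530 ± 11345 in nucleoplasm and 95217 ± 27571 in cytoplasm (SD, n = 3 each), and the fractions then overlapped.

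At the other end, 11 lncRNAs read above the median level had a 95% interval inside -1 to 1, and Gm17491, Halr1, Gm37494, which RefSeq lists as protein-coding, and AU020206 were nearest to even. Halr1, an RNA of the HoxA locus, had 385, 427 and 345 in nucleoplasm and 323, 525 and 298 in cytoplasm (log2 difference 0.05, 95% interval -0.68 to 0.78). AU020206 had 487, 865 and 607 in nucleoplasm and 389, 825 and 579.8 in cytoplasm (log2 difference 0.15, 95% interval -0.55 to 0.85). These fractions overlapped, so no difference beyond the spread between libraries was seen, which does not show that they are even. Nearness to even depended on the scale. Under median centring the log2 differences were 0.31 for Halr1 and 0.40 for AU020206, and with edgeR under TMM 0.48 and 0.57. None of these passed.

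Chromatin libraries of the same label pulse hold total RNA rather than polyadenylated RNA and did not enter the comparison, so their values are set beside it without a test. Over the 38 lncRNAs higher in nucleoplasm the median signal was 265 on chromatin, 103 in nucleoplasm and 21.2 in cytoplasm. Over the 74 lower there it was 22.9, 75.2 and 280. Over the 362 that did not pass it was 56.7, 44 and 48.5. The order of nucleoplasm and cytoplasm in the 38 and the 74 follows from how they were called, so only their chromatin medians add to it. Malat1 and Gas5 lay lower on chromatin than in nucleoplasm, unlike the medians of the 38. Malat1 had 1410, 1396 and 1126 on chromatin, below all 3 of its nucleoplasm libraries and above all 3 of its cytoplasm libraries. Gas5 had 502, 422 and 485 there, below all 3 nucleoplasm libraries, and 2 of its 3 libraries lay above all those of the cytoplasm. Tunar had 6.12, 18.1 and 7.34 and Platr4 56.6, 73.2 and 44.05, and both lay below all of their cytoplasm libraries.

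After IAA the placement of new RNA was read again in 6 separate libraries, to see whether loss of SNRNP70 moved it. There 166 of 469 lncRNAs passed (35.4%), 80 higher in nucleoplasm (17.1%) and 86 lower (18.3%). That split too depended on the scale, with 89 higher and 68 lower under edgeR and TMM (33.5% called) and 116 higher and 73 lower under DESeq2 (40.3% called). The IAA libraries called 52 of the 73 lncRNAs that were lower in nucleoplasm without IAA and testable in each condition (71.2% of these and 60.5% of the 86 called after IAA), and 19 of the 35 that were higher (54.3% of these and 24.4% of the 78 called after IAA). Over 455 lncRNAs the differences of the 2 conditions had a Pearson r of 0.76 and a Spearman rho of 0.78, across lncRNAs that share libraries and depth. Malat1 differed by 1.60 with IAA (adjusted p = 2.67e-05) and 1.88 without, Mir17hg by 1.72 and 1.76, and Lncenc1 by -1.33 and -1.35. All 4 imprinted lncRNAs tested after IAA were higher in nucleoplasm, beside 17.1% of all tested there. Of the 14 pluripotent-cell lncRNAs 6 were lower, beside 18.3%.

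The change of placement with IAA, tested as an interaction over 12 libraries, passed for 1 of 492 lncRNAs (0.203%), Gm37558, which was named after its values were seen. In nucleoplasm Gm37558 had 44.7, 68.97 and 115 with IAA and 10.5, 0 and 0 without, and in cytoplasm 0, 8.77 and 6.37 with IAA and 35.9, 62.1 and 15.96 without. It was above its cytoplasm in every IAA library and below it in every library without IAA, and the interaction was 4.62 (SE 0.95, limma adjusted p = 0.00604). Without IAA nucleoplasm library 3 or without nucleoplasm library 2 of the cells without IAA no lncRNA passed. In all 30 lncRNAs, Gm37558 included, had an unadjusted p under 0.05, and DESeq2 called 13, Gm37558 not among them, since it was one of 229 lncRNAs for which DESeq2 gave no adjusted p. Epb41l4aos had an interaction of 1.10 (95% interval 0.34 to 1.86, limma adjusted p = 0.432), and DESeq2 and the replicate block called it. Also named after their values were seen, Gm38359 and 2900052L18Rik passed under some alternatives only. Gm38359 passed with edgeR on either scale, DESeq2, the larger pseudocount and the replicate block. For 2900052L18Rik the interaction was -2.29 (limma adjusted p = 0.219), and edgeR under TMM, DESeq2 and the replicate block called it. For Malat1 the interaction was -0.28 (95% interval -0.997 to 0.44).

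**Figure D4:**
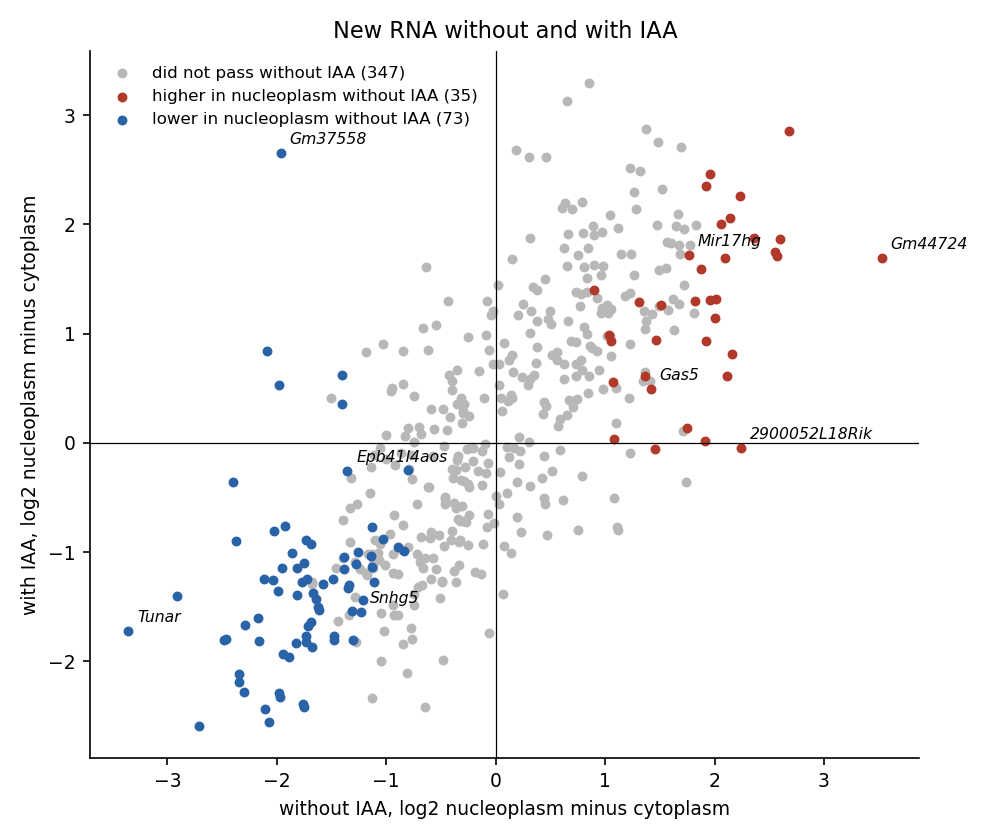
Log2 difference in new RNA, nucleoplasm minus cytoplasm, in cells with IAA (vertical) against cells without IAA (horizontal) for 455 lncRNAs, coloured by the call without IAA. Gm37558 stands alone at 2.65 with IAA and -1.97 without.

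Total RNA of the same line at 0 h, read in 6 other libraries as FPKM, gives the placement of the standing pool beside that of new RNA. Of 1184 lncRNAs tested there without pairing of libraries, 543 passed (45.9%), 346 higher in nucleoplasm (29.2%) and 197 lower (16.6%). With libraries centred on their median the split was even, 247 higher and 247 lower (41.7% called). Of the 32 lncRNAs that were higher in nucleoplasm as new RNA and could be tested in total RNA, 29 were higher there too (90.6% of these and 23.6% of the 123 so called in total RNA) and 0 were lower. Of 68 lower as new RNA, 45 were lower in total RNA (66.2% of these and 45% of 100) and 4 were higher. Over 389 lncRNAs the differences had a Pearson r of 0.63 and a Spearman rho of 0.63. Total RNA was not selected for poly(A) tails and had another spike-in, so label time, tail selection and scale differ together and cannot be told apart.

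The 4 lncRNAs on opposite sides, named after their values were seen, were BC002059, Gm6712, Snhg5 and Gm42418. BC002059 (chr17:16951536-16974157) as new RNA had 230.4, 289.7 and 167 units in nucleoplasm and 629, 1023 and 543 in cytoplasm. Its total RNA was 8.76, 8.49 and 7.16 FPKM in nucleoplasm, against 2.70, 2.17 and 1.62 FPKM in cytoplasm, so each pool was separated without overlap but in opposite directions. Snhg5 in total RNA had 122, 102 and 100.5 FPKM in nucleoplasm and 63.96, 87.98 and 77.04 FPKM in cytoplasm (log2 difference 0.51, adjusted p = 0.0397). With libraries paired by number the limma adjusted p was 0.0209. Gm6712 and Gm42418 had log2 differences of 1.64 and 0.78 in total RNA, against -2.40 and -1.49 in new RNA. For Gm6712 RefSeq lists a protein-coding gene. With total RNA libraries centred on their median, Snhg5 (adjusted p = 0.217) and Gm42418 (adjusted p = 0.068) did not pass in total RNA, while BC002059 and Gm6712 did.

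With every library centred on its own median, the difference between new and total placement was itself tested, and 30 of 389 lncRNAs passed (7.71%), 11 with new RNA more nucleoplasmic than total RNA (2.83%) and 19 with new RNA less so (4.88%). Centring on the upper quartile gave 9 (2.31%) and 25 (6.43%), 8.74% called in all. The balance turned with no filter on low values, to 30 (7.25%) and 18 (4.35%), 11.6% in all, and with the replicate block, to 20 (5.14%) and 18 (4.63%), 9.77% in all. Leaving out 1 library gave 16 to 50 calls, with 25 on each side without cytoplasm library 3 of new RNA. BC002059 had the largest such shift among well read lncRNAs, -3.16 (SE 0.29, adjusted p = 7.87e-06). Gm43059, Gm12940, ENSMUSG00000103283.2 and 2810002D19Rik followed at -2.56, -2.39, -2.33 and -2.05, of which RefSeq lists Gm12940 as protein-coding. ENSMUSG00000103283.2 did not pass with the replicate block (adjusted p = 0.0541). Snhg5 shifted by -1.40 (adjusted p = 0.00154), Platr4 by -1.85 (adjusted p = 0.00433) and Tug1 by -0.995 (adjusted p = 0.00976), all towards the cytoplasm as new RNA. Tug1 in total RNA had 86.2, 77.04 and 64.02 FPKM in nucleoplasm and 15.1, 14.5 and 13.6 FPKM in cytoplasm, a log2 difference of 2.38 beside 1.04 for new RNA.

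In the other direction, Snhg8 was less cytoplasmic as new RNA. In total RNA it had 39.8, 39.98 and 45.2 FPKM in nucleoplasm, against 119.9, 109 and 134 FPKM in cytoplasm, a log2 difference of -1.53 beside -0.84 for new RNA, and the shift was 1.04 (SE 0.23, adjusted p = 0.0146). Smim20, BC051077, Tmem134 and Gm44832 shifted by 2.32, 1.46, 1.37 and 1.33, of which RefSeq lists Smim20 and Tmem134 as protein-coding. Tmem134 did not pass with upper-quartile centring (adjusted p = 0.0798). Mirg shifted by 1.74 (adjusted p = 0.0411), with 7.88, 6.54 and 6.83 FPKM in nucleoplasm and 5.97, 6.59 and 8.11 FPKM in cytoplasm as total RNA. Malat1, Neat1, Gas5 and Lncenc1 had shifts of -0.05, -0.17, 0.19 and 0.02 (SE 0.26, 0.22, 0.33 and 0.17) and did not pass.

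**Figure D5:**
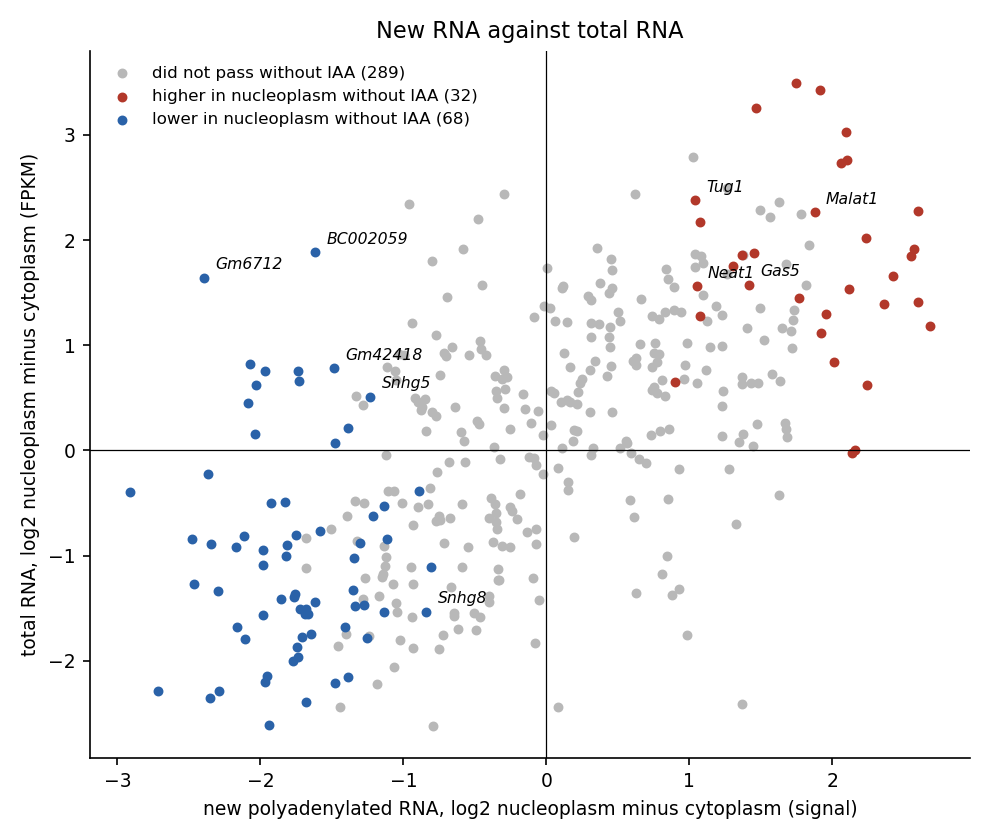
Log2 difference, nucleoplasm minus cytoplasm, in total RNA at 0 h (vertical, FPKM) against new polyadenylated RNA (horizontal, spike-in scaled signal) for 389 lncRNAs, coloured by the call in new RNA. BC002059, Gm6712, Snhg5 and Gm42418 are lower in nucleoplasm as new RNA and higher there as total RNA.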

How the data were processed

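The values of new RNA were a signal that the authors deposited, per the file headers T-to-C read counts scaled to spike-in RNA, and those of total RNA were FPKM made by the authors, also scaled to spike-in RNA per the file headers. The submitters' processing notes name CASAVA, Cufflinks and TopHat, and the mouse build mm10. How T-to-C reads were called is not given in the sources used here. Low signal values stood on whole steps, 100% of them within 0.1 read, and the reads so recovered served for count tests as alternatives only.

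The tests were limma 3.58.1 (R 4.3.3, eBayes with trend, Benjamini-Hochberg, threshold 0.05) on log2 of the signal plus 8.21 or of FPKM plus 0.1, the 10th percentiles of values above 0. A lncRNA was tested where at least 3 libraries of the comparison reached that amount, which left out 18 of 492. Alternatives were another pseudocount, no filter, median centring, shared spread over 12 or 18 libraries, edgeR 4.0.16, DESeq2 1.42.0, a replicate block and leaving out each library. The scripts were tested on simulated data. Depth of the FPKM libraries is unknown, and 3 entries with repeated identifiers were left out of that table. Replicate libraries differed by more than sampling noise. In total RNA, same-numbered nucleoplasm and cytoplasm libraries deviated together (correlations of 0.103, 0.178 and 0.232). The numbers thus appear to pair them, from the data and not from the labels. The main fits of total RNA and of new against total RNA did not use this pairing. The replicate block, which does, served as an alternative. The numbers of new RNA were not taken as pairs.

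Named were the 8 largest non-overlapping differences in each direction past the threshold at or above the median level, the 5 most strongly read per fraction, the 4 nearest to even, up to 4 passing members per list, the 5 largest new-against-total shifts in each direction, and a standing set (Malat1, Neat1, Meg3, Rian, Mirg, Kcnq1ot1, Tsix, Firre, Lncenc1, Tug1, Gas5, Snhg1, Snhg12, Pvt1, Dleu2, Dancr, 1700020I14Rik, Epb41l4aos). Xist and 2900097C17Rik, also in that set, were not analysed here. The comparison, the lists and this rule were chosen with earlier results of these data known. Symbols matched for 485 of 492 entries and positions for 227, from RefSeq on GRCm38.p6. Of the X-inactivation lncRNAs, 1 of 3 was higher in nucleoplasm, beside 8.02% of all tested.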

Additional observations from a re-analysis of the deposited data

Results flagged for a closer look

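Gm37558 is the lncRNA whose placement differed between cells with and without IAA by a test of the difference itself, with an interaction of 4.62 on the log2 scale (limma adjusted p = 0.00604). It rests on few reads: its signal was 44.7, 68.97 and 115 with IAA and 10.5, 0 and 0 without in nucleoplasm, and 0, 8.77 and 6.37 with IAA and 35.9, 62.1 and 15.96 without in cytoplasm, and chromatin held 144, 187 and 109 without IAA. No test of a cause was made.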

How the results depend on the processing

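The count of new lncRNAs that differed between nucleoplasm and cytoplasm without IAA, 112, was 73 with a pseudocount of 1 and 22 to 135 when 1 library was left out, the lowest without nucleoplasm library 1. It lay between 110 and 167 under the other alternatives. The replicate block gave 160 such calls without IAA and 174 with IAA, 579 in total RNA and 38 for new against total RNA. Same-numbered libraries without IAA correlated at 0.114, 0.08 and 0.027, so the numbers were not taken to pair them, although each nucleoplasm library correlated best with its own number. The block also called Meg3 (adjusted p = 3.36e-04), Kcnq1ot1 (0.0102), Firre (0.015), Snhg3 (1.02e-04), Snhg1 (0.0163), BC051077 (0.00888) and Tmem134 (0.0336) without IAA. Among lncRNAs with printed values in total RNA or in new against total RNA, where total RNA numbers pair, it changed only the call of ENSMUSG00000103283.2. The change with IAA passed for 0 lncRNAs with a pseudocount of 1, 2 with the larger one, 4 with the replicate block, 2 with edgeR on the spike-in scale, 4 with edgeR and TMM, 13 with DESeq2 and 0 to 2 without 1 library. New against total RNA gave 48 calls without a filter and 16 to 50 without 1 library, against 30.

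Among named lncRNAs, none that passed changed direction. Of those that did not pass, TMM and DESeq2 gave estimates above 0 for Snhg3 (0.084 and 0.18), Gm12940 (0.14 and 0.24), ENSMUSG00000103283.2 (0.039 and 0.13), Dancr (0.15 and 0.25), Snhg1 (0.13 and 0.22) and Gm44832 (0.012 and 0.11), and DESeq2 for BC051077 (0.061). Gm17491 was at -0.003 with the larger pseudocount and -0.057 with edgeR on the spike-in scale. Leaving out 1 library moved estimates across 0 for Gm12940 (-0.606 to 0.07), Halr1 (-0.101 to 0.3), Gm17491 (-0.375 to 0.276), AU020206 (-0.122 to 0.412), Rian (-0.066 to 1.042) and Gm37494 (-0.124 to 0.245). The causes were not tested.

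Depth limits the cytoplasm most. There 1 read was worth 5.32 to 5.99 units, so 3 reads, 15.96 to 17.96 units a library, are the smallest level that can be told from 0, counting error only.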
